A study of Sus scrofa and Rattus norvegicus with 8 samples.

Results

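The genes described here are the antioxidant enzymes of pig subcutaneous fat: the superoxide dismutases SOD1, SOD2 and SOD3, catalase (CAT), the glutathione peroxidases GPX1, GPX3 and GPX4, and the peroxiredoxins PRDX1, PRDX3 and PRDX6. They were chosen by name, and a gene entered when a pig Ensembl ID carried 1 of these 10 symbols. Of the 10, 9 had values in the pig table of 25880 IDs, and GPX1 was not analysed here. RNA-seq was run on rRNA-depleted total RNA from the upper layer of backfat of 6 adult female Bama pigs, aged 2 years, with 1 library per animal, and 2 pools of rat inguinal fat in the same series do not enter. The pigs form 1 group with no treatment and no contrast, and were not fed on the night before slaughter. Abundance is in TPM (transcript abundance corrected for transcript length, on a fixed total per library), which keep no read numbers, so the depth of each library is unknown and the only error given is the spread between pigs.

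Cells that burn fuel release superoxide, which superoxide dismutases turn into hydrogen peroxide, and catalase, glutathione peroxidases and peroxiredoxins then break the peroxide down. The enzymes divide this work by place: SOD1, PRDX1 and PRDX6 act mainly in the cytosol, SOD2 and PRDX3 in mitochondria, catalase in peroxisomes, and SOD3 and GPX3 are secreted. Fat cells store lipid that peroxides can damage, and GPX4 is known for reducing lipid peroxides within membranes.

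The catalytic residue sets the families apart, and its codon is printed here for each peroxidase measured. Capitals mark that codon within 18 bases of coding sequence on each side, read 5′ to 3′ on the gene's strand from the Sscrofa11.1 genome with the RefSeq annotation. In GPX3 and GPX4 it is TGA, elsewhere a stop, here read as selenocysteine, so both proteins depend on selenium.
GPX3, codon 73 of 226, chr16:71984080-71984118, minus strand: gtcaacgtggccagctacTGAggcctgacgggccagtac
GPX4, codon 73 of 197, chr2:77322615-77322653, minus strand: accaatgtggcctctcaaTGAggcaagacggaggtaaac
PRDX1, codon 52 of 199, chr6:165851430-165851468, plus strand: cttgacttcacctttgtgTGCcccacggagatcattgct
PRDX3, codon 113 of 261, chr14:129086224-129087282 joined over 2 exons, minus strand: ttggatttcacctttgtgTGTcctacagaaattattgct
PRDX6, codon 47 of 224, chr9:115861511-115861549, plus strand: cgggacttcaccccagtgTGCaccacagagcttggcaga
In the peroxiredoxins the marked codon, TGC or TGT, encodes the cysteine that attacks the peroxide.

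Replicates 4 and 5 stood apart before any enzyme was considered. Named nuclear genes held 24.1 to 26.3% of the TPM in replicates 1, 2, 3 and 6, but 3.34% in replicate 4 and 4.73% in replicate 5. In every library IDs with no symbol took most of the rest. The 13 mitochondrially encoded protein genes held 10.8 to 21.2% in the former 4 libraries and 0.209% and 0.298% in replicates 4 and 5. The levels of the 9 enzymes are therefore given as deposited and also as rescaled TPM, and those of other genes as rescaled TPM, for which the named nuclear genes of each library were brought to a total of 1000000. This multiplied deposited values by 3.80 to 4.15 in replicates 1, 2, 3 and 6, by 29.9 in replicate 4 and by 21.1 in replicate 5. All 5 adipocyte markers were abundant in every library: the adipokine ADIPOQ had 2992 ± 520.3 rescaled TPM (SD, n = 6), the fatty acid carrier FABP4 18679 ± 7299, the lipid droplet proteins PLIN1 1659 ± 353 and CIDEC 650.4 ± 193, and the lipase LPL 1917 ± 194. On that scale CIDEC was above, and PLIN1 below, all of the other 4 libraries in both replicates 4 and 5.

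All 9 measured enzymes exceeded 0.1 TPM in all 6 libraries, as did 67.2% of the 14844 named nuclear genes. Their levels were high: the median of their means was 369.6 rescaled TPM, against 16.7 over all named nuclear genes, and 60.2 against 3.30 TPM as deposited. By mean rescaled TPM, 8 of the 9 were in the top 5% of named nuclear genes, and SOD3 was the exception. Together they held 0.664%, 0.657%, 0.786%, 0.701%, 0.763% and 0.927% of the named nuclear TPM in replicates 1 to 6, a mean of 0.750% ± 0.101 (SD, n = 6). The sum was thus steady, with replicate 6 the highest, and replicates 4 and 5 lay within the range of the others.

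**Figure D1:**
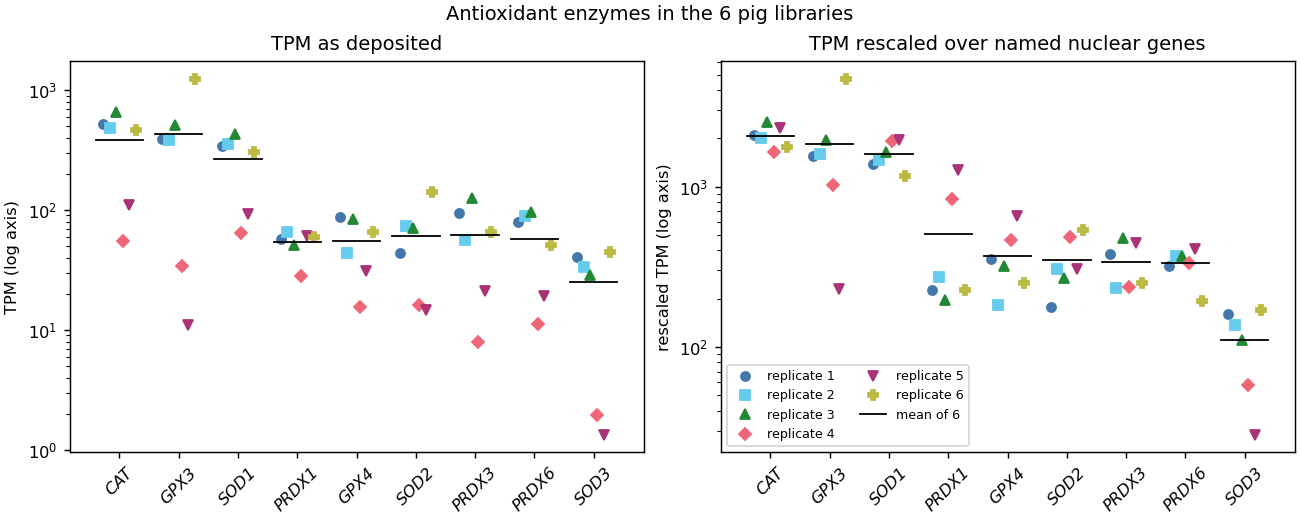
TPM as deposited (left) and rescaled over named nuclear genes (right) of the 9 enzymes, each on a log axis, with 1 symbol per pig library and a bar at the mean of 6. Replicates 4 and 5 lie lowest for every enzyme except PRDX1 on the left; on the right they are highest for PRDX1 (839 and 1276) and lowest for SOD3 (58.1 and 28.3) and GPX3 (1028 and 230.5).

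Among the superoxide dismutases, SOD1, the cytosolic copper and zinc enzyme (ENSSSCG00000021355, chr13:195326573-195335273, plus strand, 7 exons), was the most abundant. It had 1379.8, 1471, 1651, 1915, 1966 and 1164 rescaled TPM in replicates 1 to 6, a mean of 1591 ± 313 (SD, n = 6), and ranked 50 among the named nuclear genes. The values lay within 1.69-fold of each other, highest in replicates 4 and 5 and lowest in replicate 6. As deposited it had 266 ± 151 TPM (SD, n = 6), with the lowest values in replicates 4 (63.96) and 5 (93.1). The SOD1 gene overlaps SCAF4 on the other strand, and no source used here says whether quantification used strand, so its level carries that uncertainty.

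SOD2, the manganese enzyme of the mitochondrial matrix (ENSSSCG00000040317, chr1:7679352-7689564, plus strand, 5 exons), had 177, 308, 270.4, 487, 308 and 536 rescaled TPM in replicates 1 to 6. Its mean was 348 ± 137 (SD, n = 6), or 60.2 ± 47.2 TPM as deposited. Replicates 6 and 4 were the highest and replicate 1 the lowest, so the spread did not follow the division into replicates 4 and 5 and the rest. Within a library SOD1 exceeded SOD2 by 2.17 to 7.82-fold.

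SOD3, the secreted dismutase that binds to the matrix around cells (ENSSSCG00000028814, chr8:18796633-18802156, plus strand, 2 exons), was the least abundant of the 9. It had 161, 138, 110.4, 58.1, 28.3 and 169.98 rescaled TPM in replicates 1 to 6, a mean of 110.9 ± 57.2 (SD, n = 6) and a rank of 1737. Replicates 4 and 5 were below all of the other 4, and replicate 5 was the lowest. As deposited the values were 40.3, 33.2, 28.9, 1.94, 1.34 and 44.8 TPM, a 33.4-fold range against 6.01-fold after rescaling. The ratio of SOD1 to SOD3 within a library, which no single factor per library alters, was 8.56, 10.7, 14.9, 33.0, 69.5 and 6.85 in replicates 1 to 6. Without replicates 4 and 5 the mean of SOD3 was 145 ± 26.7 rescaled TPM (SD, n = 4).

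CAT, the peroxisomal enzyme that splits hydrogen peroxide into water and oxygen (ENSSSCG00000013302, chr2:26493664-26533881, minus strand, 13 exons), had the highest mean of all 9. Its rescaled TPM were 2099.9, 2008, 2514, 1647, 2314 and 1778 in replicates 1 to 6, with a mean of 2060.3 ± 324 (SD, n = 6). It was also the most even, with all values within 1.53-fold of each other and replicates 4 and 5 on either side of the mean. CAT ranked 39 among the named nuclear genes by mean and between 28 and 54 in single libraries. As deposited it had 525, 484, 658, 55.0, 109.5 and 469 TPM, a 11.96-fold range that came with the low values of replicates 4 and 5. The ratio of CAT to SOD1 was 1.18 to 1.53 in 5 libraries and 0.860 in replicate 4.

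GPX3, the glutathione peroxidase secreted into plasma (ENSSSCG00000036438, chr16:71980467-71989011, minus strand, 5 exons), spanned the widest range of the 9. Its rescaled TPM were 1549.9, 1596, 1951, 1028, 230.5 and 4704 in replicates 1 to 6, a mean of 1843 ± 1524 (SD, n = 6). Replicates 1 to 3 lay close together, replicate 6 was far above them, and replicates 4 and 5 were below all others, replicate 5 by the most. The highest value was 20.4 times the lowest, and as deposited, from 10.9 TPM in replicate 5 to 1239 in replicate 6, it was 114 times the lowest. In replicate 6 GPX3 ranked 15 among the named nuclear genes, and in replicate 5 it ranked 610. Replicate 6 also decides much of the mean and spread: without it the mean was 1271 rescaled TPM and the coefficient of variation (CV, SD over mean) 0.526, against 0.827 with all 6.

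GPX4, which reduces lipid peroxides and guards membranes (ENSSSCG00000024052, chr2:77321568-77323931, minus strand, 7 exons), had 352, 181, 322, 461, 652 and 249 rescaled TPM in replicates 1 to 6. The mean was 369.6 ± 168 (SD, n = 6), or 54.6 ± 29.4 TPM as deposited. Replicates 4 and 5 were the highest and replicate 2 the lowest, the opposite side from GPX3. The ratio of GPX3 to GPX4 within a library was accordingly 4.41, 8.80, 6.06, 2.23, 0.354 and 18.9 in replicates 1 to 6. GPX3 thus exceeded GPX4 in every library but replicate 5.

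PRDX1, the cytosolic peroxiredoxin recycled by thioredoxin (ENSSSCG00000003914, chr6:165847390-165859918, plus strand, 6 exons), was the exception among the 9 as deposited. Its values were 56.8, 65.5, 51.0, 28.0, 60.4 and 59.9 TPM, so that replicate 5 was as high as replicates 1, 2, 3 and 6. Rescaled, they were 227.5, 272, 195, 839, 1276 and 227 TPM, with a mean of 506 ± 449.5 (SD, n = 6). Replicates 4 and 5 were then far above the other 4, which lay between 195 and 272. Without replicates 4 and 5 the mean was 230.3 ± 31.6 rescaled TPM (SD, n = 4), and the CV fell to 0.137 from 0.888. PRDX1 was the only enzyme of the 9 whose CV rose on rescaling, from 0.250 as deposited.

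PRDX3, the mitochondrial peroxiredoxin (ENSSSCG00000010682, chr14:129079050-129090790, minus strand, 7 exons), had 377, 234, 481, 237, 446 and 249.7 rescaled TPM in replicates 1 to 6. Its mean was 337 ± 112 (SD, n = 6), or 61.9 ± 44.2 TPM as deposited, and replicates 4 and 5 lay on either side of it. The ratio of PRDX1 to PRDX3 was 0.603, 1.16, 0.405, 3.53, 2.86 and 0.911 in replicates 1 to 6, so the cytosolic enzyme was well ahead of the mitochondrial one only in replicates 4 and 5.

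PRDX6, a peroxiredoxin that relies on glutathione and also acts on phospholipids (ENSSSCG00000022742, chr9:115857629-115868898, plus strand, 5 exons), had 318, 368, 371, 333, 406 and 193 rescaled TPM in replicates 1 to 6. The mean was 331 ± 74.6 (SD, n = 6), or 57.7 ± 36.5 TPM as deposited. Replicate 6 was low and the other 5 libraries were close together: without replicate 6 the CV was 0.0961, against 0.225 with all 6. PRDX6 overlaps the RefSeq gene LOC100624136 on the other strand, so the same uncertainty over strand applies as for SOD1.

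The order of the levels was CAT, GPX3, SOD1, PRDX1, GPX4, SOD2, PRDX3, PRDX6 and SOD3 by mean rescaled TPM. Ratios within a library were tested for all 36 pairs with an exact two-sided permutation test over sign changes, for which the smallest possible p with 6 libraries is 0.03125. One order held in all 6 libraries for 18 of the 36 pairs, each at that p (0.0625 after Benjamini-Hochberg adjustment over the 36 pairs), so 18 pairs passed 0.05 unadjusted and 0 passed it adjusted. Of the 8 pairs of neighbours, the order held in 6 of 6 libraries for SOD1 over PRDX1, with a mean log2 ratio of 2.05 ± 0.94 (SD, n = 6), and for PRDX6 over SOD3, with 1.78 ± 1.27. The other 6 pairs of neighbours did not differ beyond their spread, with exact permutation p of 0.4375 to 1. GPX3 had a higher mean than SOD1, but its mean log2 ratio to SOD1 was -0.24 ± 1.68 (SD, n = 6), and without replicate 6 the means were 1271 and 1677 rescaled TPM. CAT exceeded SOD1 in 5 of 6 libraries, with an exact permutation p of 0.0625.

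The make-up of the antioxidant transcripts differed more between libraries than their sum. SOD1 made up 21.6% ± 5.17, CAT 27.9% ± 5.26 and GPX3 23.5% ± 15.8 of the summed TPM of the 9 genes (SD, n = 6). The secreted enzymes SOD3 and GPX3 together held 25.8%, 26.4%, 26.2%, 15.5%, 3.39% and 52.6% in replicates 1 to 6. The peroxiredoxins held 13.9%, 13.3%, 13.3%, 20.1%, 27.9% and 7.23% in the same order. Replicate 5 had the smallest secreted share and the largest peroxiredoxin share, and replicate 6 the reverse. Shares of 1 sum cannot vary independently, and no test was made of this. The mitochondrial enzymes SOD2 and PRDX3 held 9.14% ± 0.901 (SD, n = 6), between 8.24% and 10.3%. Within that share the balance moved, since the ratio of PRDX3 to SOD2 was 2.14, 0.758, 1.78, 0.488, 1.45 and 0.466 in replicates 1 to 6.

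**Figure D2:**
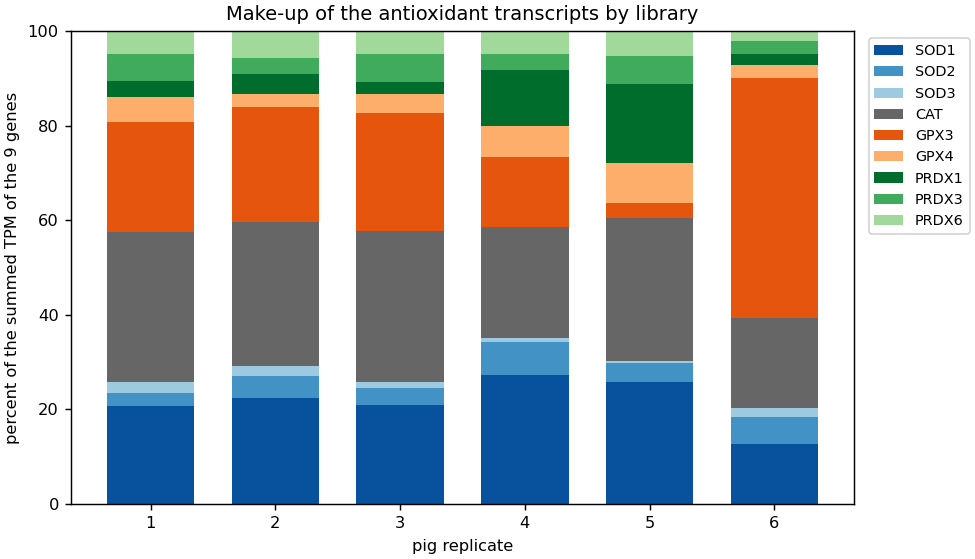
Percent of the summed TPM of the 9 enzymes held by each, in a stacked bar per pig library. GPX3 takes 50.7% in replicate 6 and 3.02% in replicate 5, while PRDX1 takes 11.97% in replicate 4, 16.7% in replicate 5 and 2.45 to 4.13% elsewhere.

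Spread between pigs was measured by the CV of rescaled TPM. The median CV of the 9 enzymes was 0.393, against 0.282 over the 8866 named nuclear genes that averaged 10 rescaled TPM or more, and 6 of the 9 were above that median. Without replicates 4 and 5 both medians were lower, at 0.267 and 0.161. Over all 6 libraries PRDX1 (CV 0.888) and GPX3 (0.827) were among the most variable genes at this level, since 0.846% and 1.26% of the 8866 genes had a larger CV. Without replicates 4 and 5 the CV of PRDX1 was 0.137, below the 0.161 of the median gene, and that of GPX3 was 0.618. SOD3 followed at 0.515, GPX4 at 0.454, SOD2 at 0.393 and PRDX3 at 0.331. CAT (0.157), SOD1 (0.197) and PRDX6 (0.225) varied less than the median gene. Without replicates 4 and 5 this still held for CAT (0.146) and SOD1 (0.143), but PRDX6 (0.267) varied more than the median gene. As deposited, the median CV of the enzymes was 0.634, and rescaling lowered the CV of 8 of the 9.

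**Figure D3:**
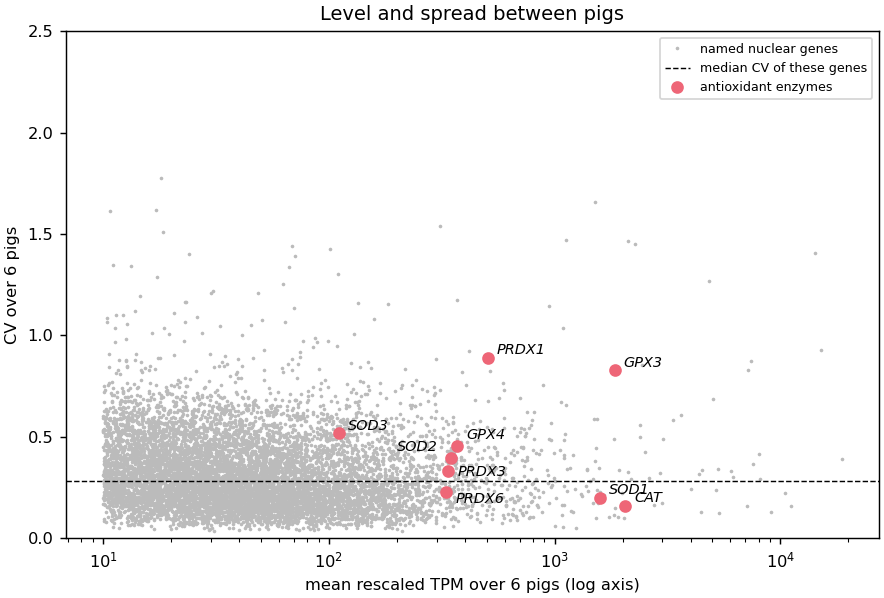
CV over the 6 pigs against mean rescaled TPM (log axis) for the 8866 named nuclear genes (grey) and the 9 enzymes (red), with a dashed line at the median CV of 0.282. PRDX1 and GPX3 sit well above the line at high levels, and CAT and SOD1 below it.

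Replicates 4 and 5 were then set against the other 4 libraries, gene by gene, as a description without a test. On the rescaled scale SOD1, GPX4 and PRDX1 (3 of 9) were above all of the other 4 in both, which 12.3% of the 8866 genes also were. SOD3 and GPX3 (2 of 9) were below in both, which 48.6% of the genes also were, and SOD2, CAT, PRDX3 and PRDX6 were on neither side in both. The scale itself is shifted: the median gene deviated from its own median over libraries by 0.07, 0.07, -0.02, -0.26, -0.31 and 0.10 on the log2 scale in replicates 1 to 6. The 2 secreted enzymes were below in both libraries under each of the 4 scalings used (deposited, rescaled, median-centred and quantile normalized). GPX4 and PRDX1 were above under all of these except the deposited TPM, and SOD1 only under the rescaled and median-centred ones. After median-centring 33.2% of the 8866 genes were above in both and 25.6% below, and after quantile normalization 29.3% and 27.0%. As deposited, 0 of the 9 were above and 8 were below, SOD1 and GPX4 among them and PRDX1 the exception, while 0.079% of the 8866 genes were above and 99.1% below.

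Long transcripts were lower in replicates 4 and 5, so each enzyme was also compared with genes of its own length and GC content. The 821 genes with the longest transcripts (8332 to 54351 bases) had median log2 deviations of -0.53 in replicate 4 and -0.75 in replicate 5, and the 822 with the shortest (80 to 1334 bases) -0.0048 and 0.16. The enzymes have transcripts of 635 (SOD1) to 2353 (CAT) bases. With genes split into 10 bins of length and 10 of GC content, and the median of the enzyme's own bin subtracted, PRDX1 deviated by 1.87 in replicate 4 and 2.40 in replicate 5 on the log2 scale. GPX4 deviated by 0.47 and 0.87, and SOD1 by 0.29 and 0.24. On the other side SOD3 deviated by -0.88 and -2.01, and GPX3 by -0.40 and -2.65. On this scale too, SOD1, GPX4 and PRDX1 were above and SOD3 and GPX3 below in both libraries, as 25.1% and 29.8% of 8211 genes were. In replicate 6, GPX3 deviated by 1.48 and PRDX6 by -0.92.

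**Figure D4:**
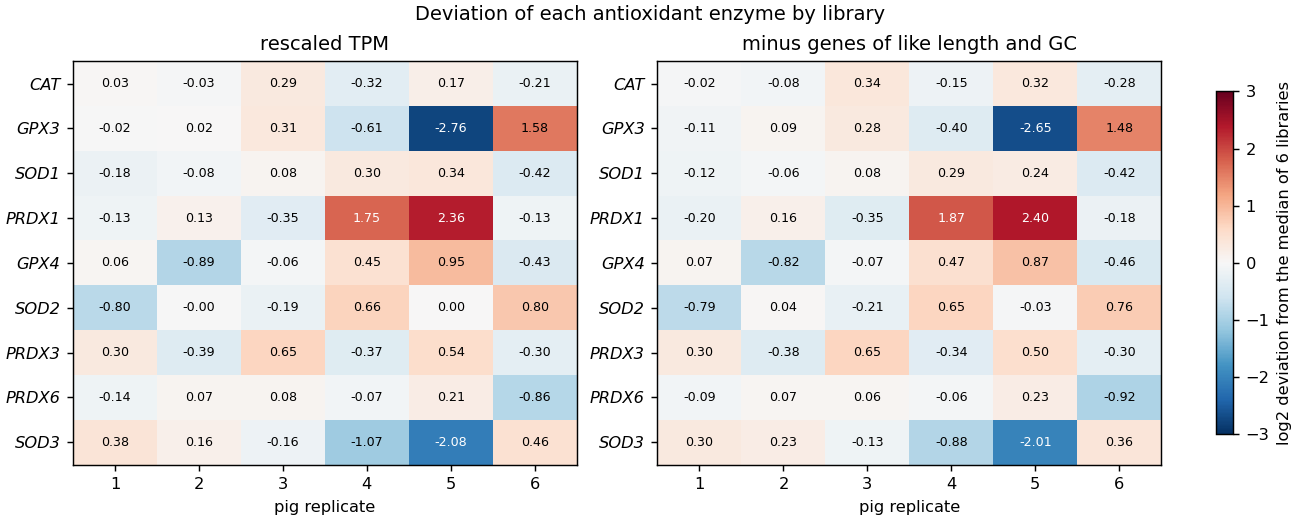
Log2 deviation of each enzyme from its median over the 6 pig libraries, on the rescaled scale (left) and after subtracting genes of like length and GC content (right), with red above and blue below. PRDX1 in replicates 4 and 5, GPX3 in replicates 5 and 6 and SOD3 in replicate 5 stand out in both panels.

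Markers of other cell types are given beside these values, and their part in the differences was not tested. In bulk tissue, fewer cells of a type and less RNA per cell cannot be told apart. Of the macrophage markers, 6 of 6 were measured, with a summed 215 to 599 rescaled TPM, lowest in replicate 5, and 4 were below the other libraries in both replicates 4 and 5. Of the endothelial markers, 4 of 5 were measured, with sums of 605 to 1322, lowest in replicate 4, and PECAM1, CDH5 and KDR (3 of 4) were below in both replicates 4 and 5. The stromal sum was 9553 to 28151, lowest in replicate 4, and COL1A1 and DCN (2 of 5) were below in both replicates 4 and 5. These counts stand beside the 48.6% of all 8866 genes that were below in both on the rescaled scale. That share was 25.6% after median-centring and 27.0% after quantile normalization, for which the sides of the markers are not reported here. The haemoglobin gene HBB, which marks blood, had 103, 148, 502, 955, 399 and 220.2 rescaled TPM in replicates 1 to 6. It made up most of the blood list, of which 5 of 7 were measured, with sums of 118 to 973, so the sums follow HBB. The other measured genes of the list were low, with means of 1.60 to 5.77 rescaled TPM, and did not all share the pattern of HBB. HBM and ALAS2 were, like HBB, highest in replicate 4. SLC4A1 was lowest in replicates 4 and 5, at 2.12 and 2.01 rescaled TPM against 5.77 to 9.40 elsewhere. AHSP was lowest in replicate 5, at 0.763. Of the 5 liver markers, all measured, with sums of 54.8 to 1137, ALB had 85.7, 794, 326, 772, 1091 and 47.6. CPS1 had 0.506, 7.42, 3.12, 15.2, 17.1 and 0.596 rescaled TPM, and APOA2 0.959, 17.1, 8.90, 29.2, 11.6 and 0. Both were, like ALB, lowest in replicates 1 and 6. TTR, at 6.66 to 21.1, was lowest in replicates 6 and 3, and SERPINA1 was at 0 in 5 of 6 libraries. The measured muscle markers (3 of 7) and epidermis markers (3 of 5) summed to at most 11.0 and 1.67 rescaled TPM in any library.

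The genes whose pattern over the 6 libraries was most like that of the 3 most variable enzymes were sought among the 8866. Likeness was the root mean square difference of centred log2(rescaled TPM + 1). For PRDX1 the nearest were TMEM258 (0.162), NDUFA4 (0.181) and MSRB1 (0.201), which like PRDX1 were highest in replicates 4 and 5. MSRB1, a selenoprotein that repairs oxidized methionine, had 60.7, 79.6, 72.4, 198, 347 and 63.9 rescaled TPM in replicates 1 to 6. For GPX3 the nearest were SLITRK6 (0.308), ANPEP (0.371) and ISM1 (0.440), less close than those of the others. ANPEP, a peptidase of the cell surface, had 252, 161, 194, 74.6, 23.1 and 366 rescaled TPM. For SOD3 the nearest were CECR2 (0.092), ARHGAP32 (0.097) and LEMD1 (0.104).

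Around the 9 enzymes, 10 lists of genes of the same chemistry were read, with 109 of their 125 genes measured. Their median mean was 30.6 rescaled TPM, against 369.6 for the enzymes themselves. Among the 84 with a mean of at least 10, the median CV was 0.276, 21 (25.0%) were above in both replicates 4 and 5, against 12.3% of all 8866 genes, and 24 (28.6%) were below in both, against 48.6%. The sides that follow are those of the rescaled scale, and the same shares of all genes stand behind the count of each list. As deposited 0 of the 84 were above and 81 below. After median-centring 41 of the 84 were above, all of the 21 included, and after quantile normalization 35 were, including 20 of the 21 (not FTL), beside 33.2% and 29.3% of all genes. Median-centring left 9 of the 84 below and quantile normalization 11, each among the 24, beside 25.6% and 27.0% of all genes. Below under both were NFE2L2, HMOX1, SESN3, CHAC2, EEFSEC, SELENON, PEX5, ACOX2 and ERO1A.

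**Figure D5:**
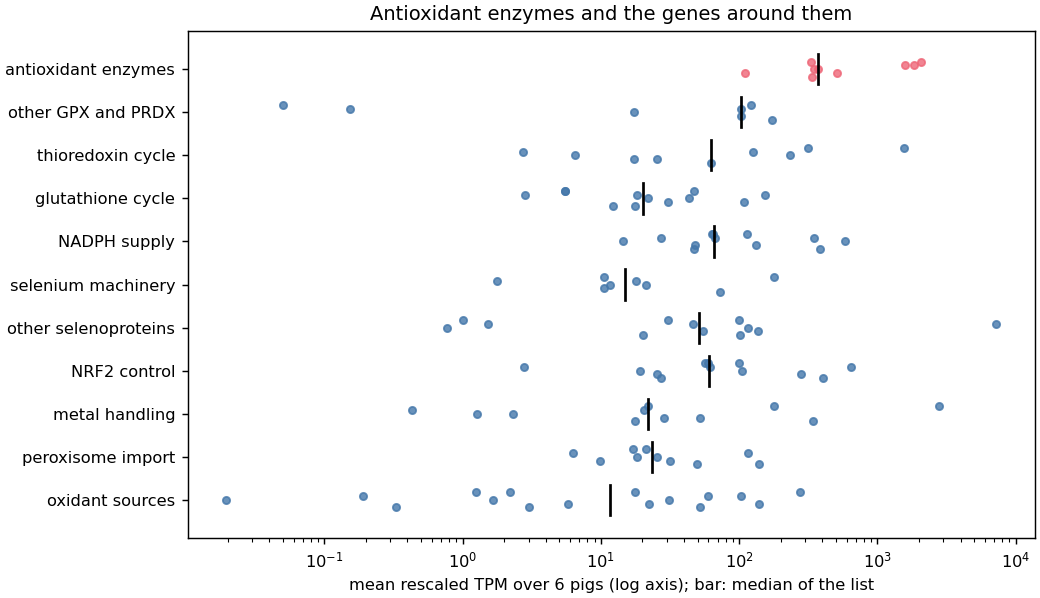
Mean rescaled TPM over 6 pigs (log axis) of each measured gene in the 10 lists (blue) and of the 9 enzymes (red), with a bar at each list's median. The enzymes have a median of 369.6, above that of every list, and SELENOW (7209.5) is the highest point.

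The other glutathione peroxidases and peroxiredoxins were lower, with a median mean of 103 rescaled TPM over the 7 measured of 8. PRDX2, an abundant peroxiredoxin of red blood cells, was the highest, with 142, 116, 140.2, 235, 285 and 113 rescaled TPM in replicates 1 to 6. PRDX5, found in mitochondria and peroxisomes, had 81.8, 51.2, 57.5, 152, 205 and 68.8. Both were above in replicates 4 and 5, as were PRDX4 and PRDX1, while PRDX3 and PRDX6 were not. GPX7, a peroxidase of the endoplasmic reticulum, had 17.3 ± 5.31 (SD, n = 6) and was below in both.

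In the thioredoxin cycle, which recycles most peroxiredoxins, 9 of 10 genes were measured, and thioredoxin itself (TXN) was not analysed here. Of those measured, TXNIP, the inhibitor that binds thioredoxin, was the highest at 1563 ± 269 rescaled TPM (SD, n = 6). TXNRD1, the cytosolic reductase of thioredoxin, had 127 ± 46.0 and was above in both replicates 4 and 5. Its mitochondrial counterpart TXNRD2 had 6.47 ± 1.49. SRXN1, the sulfiredoxin that restores overoxidized peroxiredoxins, had 11.12, 15.2, 11.2, 37.8, 42.7 and 35.1 rescaled TPM in replicates 1 to 6. It was thus high in replicate 6 as well as in 4 and 5, unlike PRDX1. TXN2 and SESN3 were below in both.

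In the glutathione cycle, which feeds GPX3, GPX4 and PRDX6, the median mean was 20.0 rescaled TPM over 12 measured genes. GLRX3 was the highest at 155 ± 14.6 (SD, n = 6), and CHAC1, which degrades glutathione, had 5.51 ± 2.84 and CHAC2 18.1 ± 8.95. GSR, which reduces oxidized glutathione, had 30.6 ± 4.56. GSS and GSR were above in both replicates 4 and 5, and CHAC2 and GLRX3 below.

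For the supply of the NADPH that both cycles consume, a chosen list of 12 genes was read, all measured, with a median mean of 65.5 rescaled TPM. IDH1, the cytosolic isocitrate dehydrogenase, was the highest at 586 ± 153 (SD, n = 6), and MTHFD2 the lowest at 14.4 ± 2.54. ALDH1L1 had 113 ± 65.9 and was above in both replicates 4 and 5, with NNT and NADK2.

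GPX3 and GPX4 need the machinery that inserts selenocysteine at the TGA codons shown above. Of that machinery 8 of 10 genes were measured, with a median mean of 14.9 rescaled TPM, and SEPHS2 and the selenium carrier SELENOP were not analysed here. SECISBP2L had 180.02 ± 24.5 (SD, n = 6), the lyase SCLY 10.5 ± 1.99 and the elongation factor EEFSEC 10.5 ± 4.75. EEFSEC, SECISBP2 and SECISBP2L were below in both replicates 4 and 5, where GPX4 was above and GPX3 below, and SEPSECS was above. Among the other selenoproteins SELENOW was the most abundant, with 3066.5, 3658, 5652, 8992, 18520 and 3369 rescaled TPM in replicates 1 to 6. SELENOW, SELENOS, SELENOI and MSRB1 (4 of 9) were above in both replicates 4 and 5, and SELENON and SELENOO, the latter at 20.2 ± 5.02, were below.

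NFE2L2, which encodes NRF2, the transcription factor known for turning on antioxidant genes, had 480, 453, 452, 274, 235 and 545 rescaled TPM in replicates 1 to 6. It was below in both replicates 4 and 5, with MAFG, CUL3, HMOX1 and HMOX2 (5 of 11, a share close to the 48.6% of all genes), and its transcript is among the longest, at 8974 bases. KEAP1, which marks NRF2 for degradation, was even, at 57.0 ± 5.96 (SD, n = 6), and SQSTM1 had 649 ± 129. NQO1, a classical target of NRF2, had 99.4, 62.5, 65.1, 151, 144 and 73.4 and was the 1 gene of this list above in both. HMOX1, another target, had 25.3 ± 17.2 and MAFG, a partner of NRF2, 19.2 ± 2.35.

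The letters TGACNNNGC, the core of the element that NRF2 binds, were searched on both strands of the 250 bases before the start of each RefSeq gene, and 9.97% of 19556 such windows hold them. Among the 10 enzymes GPX4 alone had a match, 182 to 190 bases before its start and read on the other strand. The match is shown in capitals with 10 bases on each side, beside that of NQO1, both on the gene's strand.
GPX4, chr2:77324103-77324131, minus strand: ctgagagcatGCGCAGTCAcctacagcaa
NQO1, chr6:17292742-17292770: ctagtcacagTGACTCAGCgagattctga
A match says only that these letters occur, and the windows of the other 9 enzymes do not hold them.

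The dismutases and catalase need metals and an import route. CCS, the chaperone that loads copper into SOD1, had 45.4, 34.9, 39.5, 64.7, 83.3 and 46.1 rescaled TPM in replicates 1 to 6, above in both replicates 4 and 5 as SOD1 was. Of the metal genes 11 of 14 were measured, and FTH1, MT1A and MT2A were not analysed here. FTL, the light chain of the iron store ferritin, was the highest of those measured at 2769 ± 455 (SD, n = 6). The copper protein CP had 17.8 ± 15.8. FTL, CP, CCS and ATOX1 (4 of 8) were above in both, and ATP7A below. PEX5, the receptor that carries proteins such as catalase into peroxisomes, had 22.5, 22.4, 20.0, 12.4, 8.86 and 22.7 and was below in both, whereas CAT was on neither side. PEX19 had 138 ± 20.6 and PEX6 9.91 ± 1.29, and of this list 1 of 8 (PEX16) was above and 4 were below, shares close to the 12.3% and 48.6% of all genes.

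Among the sources of oxidants, 16 of 18 genes were measured, with the lowest median of the 10 lists, 11.7 rescaled TPM. ACOX2, an oxidase of peroxisomes, had 53.5, 42.0, 79.9, 24.8, 22.0 and 136 in replicates 1 to 6, high in replicate 6 and low in replicates 4 and 5 as GPX3 was. NCF1, a subunit of the phagocyte oxidase, had 5.83 ± 2.66 (SD, n = 6). Of the 8 genes with a mean of at least 10, ACOX2, ACOX3 and ERO1A were below in both replicates 4 and 5, beside 48.6% of all genes. None was above in both, beside 12.3% of all genes, and with 8 genes no difference from these shares is claimed.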

How the data were processed

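The authors depleted total RNA of ribosomal RNA and made stranded libraries for Illumina sequencing. Per the labels, values were made with kallisto 0.43.0, and the builds named are Sscrofa11.1 and that of the rat. The authors deposited TPM per Ensembl gene, which add up to 1000000 in each library over all genes, so each value depends on all others and on how well ribosomal RNA was removed. The study names an annotation release for its pig reference, but no source used here ties it to these tables or states the use of strand, and depth is unknown. The rat table was not used, because the name table pairs no rat ID with a symbol.

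Symbols came from a name table by ID. Rescaled TPM bring the named nuclear genes of each library to a total of 1000000. Ratios within a library were tested with exact permutation over sign changes on log2 TPM, a script that was tested on simulated data. Lengths, GC content and sequences came from the longest RefSeq transcript of each symbol (8211 of 8866 genes, or 92.6%). Computation used python 3.11.15, pandas 2.3.3 and numpy 2.4.6. Alternatives were other scalings (deposited TPM, median-centring, quantile normalization, removal of ribosomal protein genes), leaving out libraries, other pseudocounts (0.1 and 1) and lower filters. Removal of the length and GC trend was chosen after seeing the data.

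The members and lists were chosen with earlier results of these data known. Named genes are all members, the highest, the lowest detected and the most variable gene of each list, genes that act directly on a member, adipocyte markers, and the 3 nearest genes of the 3 most variable members. Some items that this rule or the counts cover are not reported here. Other names stand for counts or markers and were chosen after their values were seen. The 6 pigs are separate animals, so spread is between animals and libraries together.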

Additional observations from a re-analysis of the deposited data

Results flagged for a closer look

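In 58 sets of 6 values examined, 2 held a library far from the rest of its group, and chance alone marks about 1 in 20 such sets. FTL, the ferritin light chain, had 3635 rescaled TPM in replicate 5, against 2284 to 2770 in the other 5 libraries. GSR, glutathione reductase, had 39.2 rescaled TPM in replicate 5, against 26.6 to 31.0 in the others. None of the 9 antioxidant enzymes was marked in this way. The rule looks for 1 library apart from all others, so it misses 2 libraries that lie apart on the same side. PRDX1 is such a case, with 839 and 1276 rescaled TPM in replicates 4 and 5 against 195 to 272 elsewhere.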

How the results depend on the processing

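The level of the enzymes depends on the scale: the median of their means, 369.6 rescaled TPM, was 60.2 as deposited TPM, 81.1 after median-centring and 68.1 after quantile normalization, and 352 to 407 when each library was left out in turn. Median-centring and quantile normalization start from deposited TPM, so their values are in a smaller unit than rescaled TPM. Deposited TPM raised their median CV from 0.393 to 0.634, and leaving out 1 library gave 0.348 to 0.414. Their summed share was 0.139% when taken of all TPM, and 0.714 to 0.768% of named nuclear TPM with 1 library left out. Against the other 4 libraries, deposited TPM gave 0 enzymes above in both replicates 4 and 5 and 8 below. The count of enzyme pairs of 1 order was 18 to 23 with 1 library left out, where 5 libraries cannot reach p 0.05, and 26 without replicates 4 and 5. Median-centring gave 4 enzymes above (PRDX6 joined) and 2 below, beside 33.2% and 25.6% of genes, and quantile normalization 2 above and 3 below (CAT joined), beside 29.3% and 27.0%. SOD1 and GPX4 changed sides, from above on the rescaled scale to below as deposited. Without replicate 6 the mean of GPX3 (1271) fell behind that of SOD1 (1677). Of the 48 named genes, levels moved by more than their SD in 47 as deposited, 43 after median-centring, 44 after quantile normalization and 1 without ribosomal protein genes. The counts for deposited, median-centred and quantile normalized TPM carry the change of unit, so they cannot tell how far levels depend on normalization. Without replicates 4 and 5 the mean of PRDX1 was 230.3 instead of 506 rescaled TPM and that of SELENOW 3936 instead of 7209.5. The 3 nearest genes of PRDX1, GPX3 and SOD3 were shared at a pseudocount of 0.1. No paired analysis was possible because the pigs form 1 group and were compared with no other. With no depth in TPM, no counting error can be given for the low deposited values of replicates 4 and 5, such as the 1.34 TPM of SOD3.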
